A study of Mus musculus with 16 samples.

Results

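Growth hormone is read in muscle by a short chain of proteins, of which 5 genes are described here: the growth hormone receptor Ghr, the transcription factors Stat5a and Stat5b that carry its signal to the nucleus, and the feedback inhibitors Cish and Socs2. They were chosen by symbol, as 5 of the 35415 genes in the deposited tables. The choice named no comparison and no threshold, but it was made with earlier results of these data known, so the values below describe these mice and the adjusted p of each gene gives only its place in the fit over all genes.

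RNA sequencing was done on gastrocnemius muscle from 16 wild type male BALB/c mice, divided into 4 groups of 4. C mice were tumor-free and untrained, and E mice were tumor-free but ran. The T group was inoculated with CT26, a colon carcinoma cell line of the BALB/c strain, and stayed untrained, and the TE group was inoculated with CT26 and trained. The mice were 8 weeks old at purchase, and training lasted 4 weeks, with treadmill sessions of 60 min on 6 days of each week and a speed of 14 m/min. The tumor cells were placed under the skin of the left hind limb region, the tumor-free mice received saline there, and the untrained mice were put on a treadmill that did not move. Not every inoculated mouse of the study's TE group formed a tumor, and whether all the sequenced ones did is not given in the sources used here. The leg from which the muscle was taken is not given either.

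Binding of growth hormone to its receptor activates the kinase JAK2, which phosphorylates STAT5A and STAT5B, and these enter the nucleus and bind DNA at sites of TTC and GAA letters that mirror each other. Cish and Socs2 are among the classical genes switched on in this way, and their proteins act back on the receptor complex, so that a pulse of hormone is followed by its own restraint. Growth hormone is released in pulses in male rodents, and other cytokine receptors, such as those for prolactin, erythropoietin and the interleukins, also signal through STAT5.

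Letters of the sequence known to be bound by STAT5 occur at the start of Cish. The stretch that holds it is shown because the values below turn on Cish, with the 9-base matches to TTCNNNGAA in capitals. The motif reads the same on both strands. The stretch lies at chr9:107173853-107173882 of GRCm39 on the plus strand, within the span of the gene in the GENCODE annotation.
Cish start site: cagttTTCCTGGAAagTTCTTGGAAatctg

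The matches begin at bases 1 and 12 counted from the start given by RefSeq. The window searched held 250 bases before and 50 bases after each RefSeq start, and its place in GRCm39 was found by an exact match of the sequence, which occurred once. Of 32851 such windows, 8.30% held at least 1 match and 0.457% held at least 2. Both windows of Ghr, of Stat5a and of Stat5b held no match, and Socs2 had no entry. A match is a description of sequence and was not read as binding, which was not measured.

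Library totals were 35628211 to 37635741 counts, and 14749 genes passed the filter on low counts, all 5 described here among them. Levels within a gene are given in CPM, a count scaled to a common library total after TMM normalization. By library total alone, before the TMM factors, 3 counts in a library were worth at most 0.0842 CPM. Levels of the 5 genes are compared with each other only in FPKM, the authors' value per length and library total. The muscle markers of the myofiber list summed to 104000 to 127000 CPM in every library. The lymphocyte marker sum of TE mouse 4 was 75.5 CPM, against at most 28.7 CPM in any other mouse, so that this library stood apart.

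Ghr and Stat5b were the most abundant of the 5 transcripts. Over the 16 mice Ghr averaged 38.7 ± 3.08 FPKM (SD) and Stat5b 29.2 ± 2.95 FPKM. Cish averaged 5.42 ± 6.5 FPKM, Stat5a 2.40 ± 0.392 FPKM and Socs2 0.951 ± 0.593 FPKM. The spreads of Cish and Stat5a overlapped, so these neighbours in the order did not differ beyond their spread. The order also depended on the length used. The FPKM of Socs2 was computed with a length of 13085 bases, whereas its canonical GENCODE transcript has 2540 bases. With canonical lengths Socs2 averaged 4.90 and Stat5b 45.7, which put Socs2 above Stat5a and Stat5b above Ghr. The counts are per gene, and all annotated exons of Socs2 together cover 15258 bases. Reads outside the canonical transcript would therefore make these values too high, and their part was not tested.

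**Figure D1:**
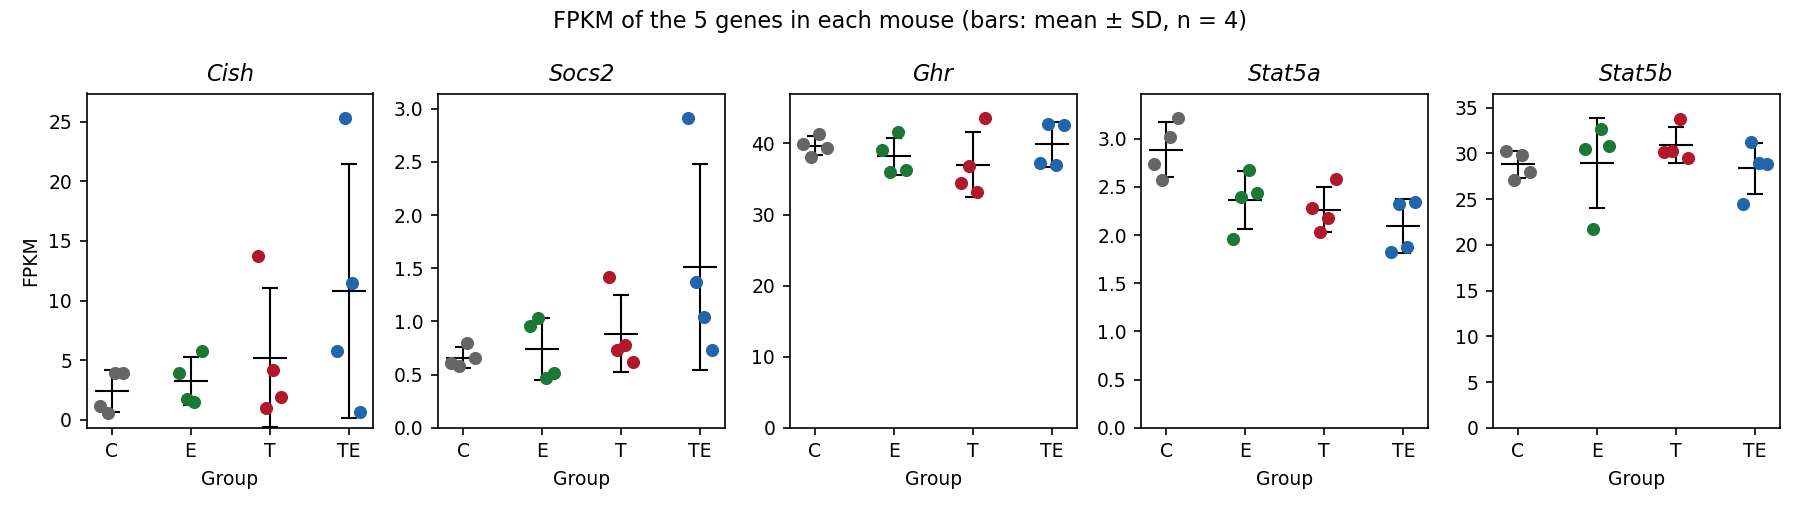
FPKM of each gene (y axis, own scale in each panel) in the 4 mice of each group (x axis), with points for mice and bars for the mean ± SD. Cish ranged from 0.583 to 25.3 FPKM, whereas Ghr stayed between 33.2 and 43.5 FPKM in all mice.

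Ghr, which encodes the receptor itself (chr15:3347235-3613024, minus strand, GRCm39), had similar levels in the 4 groups. Its CPM in the 4 mice were 187.1, 169.5, 183.2 and 177.4 in the C group and 171.3, 160.0, 178.8 and 162.0 in the E group. They were 164.4, 169.4, 148.3 and 199.7 in the T group and 167.4, 197.9, 172.6 and 188.8 in the TE group. The T group held both the lowest and the highest mouse, and all groups overlapped. The highest mouse had 1.35 times the CPM of the lowest. For T against C, Ghr differed by -0.07 on the log2 scale (SE 0.081), and the 95% confidence interval of -0.24 to 0.10 bounds the difference to a fold between 0.844 and 1.07. With one mouse left out the log2 difference ran from -0.16 without T mouse 4 to -0.02 without T mouse 3. Its log2 differences in the other comparisons of 2 groups lay between -0.09 for E against C and 0.11 for TE against E, and the interaction of tumor and training was 0.19 (SE 0.114).

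Stat5b, the more abundant of the paired STAT5 genes in this muscle (chr11:100671556-100741589, minus strand), also had similar levels in the 4 groups. Its CPM were 249.7, 212.6, 232.7 and 221.9 in the C group and 235.5, 170.1, 248.0 and 241.8 in the E group. In the T group they were 253.2, 244.9, 265.6 and 237.9, and in the TE group 193.2, 254.3, 237.5 and 225.3. E mouse 2 and TE mouse 1 were the lowest, and the groups overlapped. The T group exceeded the C group by 0.13 on the log2 scale (SE 0.104, 95% confidence interval -0.09 to 0.35).

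Stat5a (chr11:100750177-100776065, plus strand) had a lower mean in each of the 3 groups with tumor or training than in the C group, though no such difference passed the adjusted threshold with edgeR. Its CPM were 13.03, 11.60, 13.57 and 14.67 in the C group and 8.723, 10.80, 11.70 and 11.04 in the E group. They were 11.05, 9.453, 9.842 and 11.99 in the T group and 8.337, 10.92, 8.875 and 10.54 in the TE group. The lowest C mouse lay below the highest E mouse and the highest T mouse, so these groups overlapped, whereas all 4 TE mice lay below all 4 C mice. The share of tested genes whose TE and C mice did not overlap, in that direction, was 3.78%.

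The means were 13.2 ± 1.28 CPM in the C group, 10.6 ± 1.29 CPM in the E group, 10.6 ± 1.16 CPM in the T group and 9.67 ± 1.26 CPM in the TE group (n = 4 each). For T against C, Stat5a differed by -0.32 on the log2 scale (SE 0.117, adjusted p = 0.217 with edgeR's quasi-likelihood test). E against C gave the same size, -0.32 (SE 0.117, adjusted p = 0.237 with edgeR). These comparisons share the C mice. TE against C, a comparison added after the values were seen, gave -0.45 (SE 0.118, adjusted p = 0.116 with edgeR). With DESeq2 the last difference was also -0.45, with an adjusted p of 0.0349. That was 1 of 13 alternative settings for it, and over these settings the adjusted p ran from 0.0349 to 0.349.

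Counts of Stat5a and Stat5b rest on how reads from shared sequence were assigned. The coding sequences of the canonical transcripts were identical at 90.8% of 2343 aligned bases, and the longest identical run had 324 bases, beginning at coding base 571 of each gene. Its first 150 bases are shown because a read from them has the same letters in both genes, on chromosome 11.
Stat5a and Stat5b shared run: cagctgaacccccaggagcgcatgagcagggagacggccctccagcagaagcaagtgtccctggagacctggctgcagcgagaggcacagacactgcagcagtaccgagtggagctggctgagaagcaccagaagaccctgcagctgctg

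Of 150-base windows of the Stat5a transcript, 4.59% occurred exactly in Stat5b. Stat5a also overlaps 142 bases of the Stat3 gene on the opposite strand, and Cish and Socs2 each overlap 3 long noncoding RNA genes on the opposite strand, whereas Ghr and Stat5b overlap none. The strand setting of the counting is not given in the sources used here, and the part of these overlaps in the counts was not tested. Stat5a and Stat5b did not follow each other across mice, with r = 0.10 (Pearson, log2 CPM, n = 16 mice of 4 groups). Ghr and Stat5a had r = 0.40 over all mice and 0.58 after group means were subtracted.

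Cish (chr9:107173225-107179983, plus strand) encodes a cytokine-inducible SH2 protein that competes for STAT5 docking sites on receptors, and its highest and lowest mice within a group differed by 4.08-fold (E group) to 38.9-fold (TE group). Its CPM were 5.394, 2.465, 16.70 and 16.65 in the C group and 16.55, 7.585, 6 and 24.51 in the E group. In the T group they were 62.18, 4.395, 17.84 and 8.205, and in the TE group 24.61, 111.5, 50.81 and 2.863. TE mouse 2, T mouse 1 and TE mouse 3 were the highest of all 16 mice, but TE mouse 4 had the second lowest value, so every pair of groups overlapped.

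The counts behind the extremes were 92 in C mouse 2 and 4001 in TE mouse 2, a ratio of 43.5. Every library thus held at least 92 counts of Cish, and the part of counting error in the spread was not tested. The means were 10.3 ± 7.46 CPM in the C group, 13.7 ± 8.60 in the E group, 23.2 ± 26.6 in the T group and 47.4 ± 47.0 in the TE group (n = 4 each), and in the T group the SD exceeded the mean. Of the variance of log2 CPM over the 16 mice, 15.8% lay between groups for Cish, 18.1% for Stat5b, 18.9% for Ghr, 38.4% for Socs2 and 56.9% for Stat5a. Groups of 4 mice give some such share even where groups do not differ. No share over all genes is set beside these values, so they do not measure an effect of tumor or training.

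The SD of log2 CPM within groups was 1.62 for Cish, above that of 99.7% of the 14749 genes, whose median was 0.193. Among the 6846 genes with a mean log2 CPM at least that of Cish, which is not scaled for gene length, its SD was the highest, and it stayed first when each mouse in turn was left out. The next were Cyp26b1 with 1.21, Cfd with 1.19, and Cyp2e1 and Fos with 1.18 each, named after their values were seen. The SD of Cish was 1.34 in the C group, 0.945 in the E group, 1.64 in the T group and 2.26 in the TE group, so that the spread was wide in tumor-free mice too. The SD of Socs2 was 0.592, which ranked 50 of the 7479 genes at least as abundant as Socs2. Stat5b, at 0.164, ranked 107 of 460, Stat5a, at 0.168, ranked 1859 of 7533, and Ghr, at 0.116, ranked 303 of 647, counted from the highest SD. These ranks moved with single mice, to 100 for Socs2 without TE mouse 1, 236 for Stat5b without E mouse 2 and 466 for Ghr without T mouse 4.

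**Figure D2:**
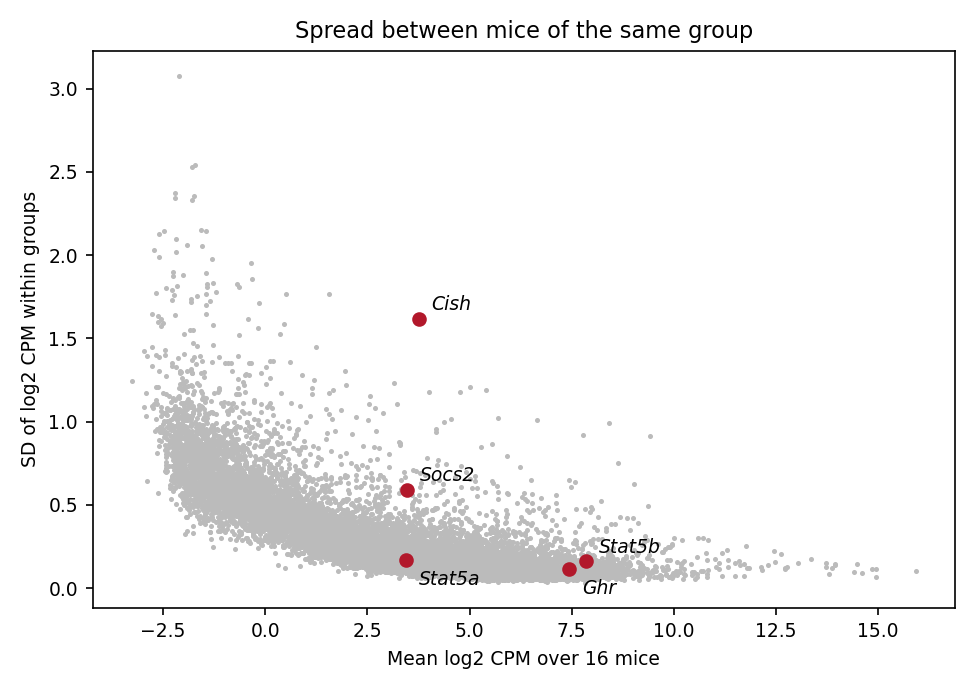
Spread between mice of the same group, as the SD of log2 CPM within groups (y axis), against the mean log2 CPM over 16 mice (x axis) for the 14749 genes tested (gray) and the 5 genes described (red). Cish, at 1.62, stands above the cloud at its level, and Ghr, Stat5a and Stat5b lie within it.

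In the edgeR fit the mean of Cish for T against C was 2.24-fold higher, with a 95% confidence interval from 0.623 to 8.07 (log2 1.16, SE 0.877, adjusted p = 0.581 with edgeR). Without T mouse 1 the log2 difference was -0.02, so that one mouse set its direction. For TE against T it was 2.05-fold higher (interval 0.594 to 7.08), and the log2 difference of 1.04 was 0.18 without TE mouse 2 and 2.22 without T mouse 1. For TE against E it was 3.47-fold higher (interval 0.973 to 12.4, adjusted p = 0.554 with edgeR), and the log2 difference of 1.80 was 0.94 without TE mouse 2. The added comparison of TE with C gave 4.6-fold with an interval of 1.26 to 16.8, which does not include 1 (log2 difference 2.20, SE 0.888, adjusted p = 0.322 with edgeR). That log2 difference was 1.34 without TE mouse 2. E against C gave a log2 difference of 0.41 (SE 0.88), which was -0.04 without E mouse 4.

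Socs2 (chr10:95219523-95253929, minus strand) encodes the inhibitor that tags the growth hormone receptor complex for degradation. Its CPM were 8.310, 7.528, 10.23 and 8.519 in the C group and 12.11, 13.29, 5.849 and 6.694 in the E group. They were 19.56, 9.757, 10.11 and 8.205 in the T group and 37.89, 18.44, 14.06 and 9.366 in the TE group. TE mouse 1 was the highest by far, TE mouse 4 lay among the C mice, and the C group was tight, with an SD of 0.183 on the log2 scale against 0.846 in the TE group.

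For TE against E, Socs2 was 2.1-fold higher (95% confidence interval 1.23 to 3.59, log2 1.07, SE 0.366, adjusted p = 0.333 with edgeR), and 3 of 4 TE mice lay above the mean of the E group. The log2 difference was 0.56 without TE mouse 1. Compared with the T group the difference was 0.75 (SE 0.363), and 0.23 without TE mouse 1. The added comparison of TE with C gave 1.20 (SE 0.368, adjusted p = 0.187 with edgeR), which was 0.69 without TE mouse 1. In tumor-bearing, untrained mice the difference from the C group was 0.46 (SE 0.369), which was 0.11 without T mouse 1.

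For T against C, E against C, TE against T and TE against E, all 5 genes had overlapping groups, where 6.86%, 9.08%, 2.58% and 6.62% of tested genes did not, and for TE against C it was 1 of 5, Stat5a, that did not overlap, beside 7.7% of tested genes in either direction. None of the 5 genes was called at an adjusted p under 0.05 with edgeR in any of the 6 comparisons. DESeq2 called 0 in the 5 comparisons planned, and only Stat5a in the added one. It called more of all genes than edgeR in every comparison, as given in the last section. The shares of called genes in this paragraph are those of edgeR. For T against C edgeR called 0 of 5, where 0.678% of all tested genes were called, and at an unadjusted p under 0.05 it was 1 of 5, Stat5a, where 14.2% of all genes passed. For E against C the same counts were 0 of 5 beside 0.0881%, and 1 of 5, again Stat5a, beside 14.2%. For TE against E they were 0 of 5 beside 0.231%, and 1 of 5, Socs2, beside 9.23%. For TE against C they were 0 of 5 beside 0.325%, and 3 of 5, Cish, Socs2 and Stat5a, beside 12.7%. For TE against T, in which 0% of genes were called, and for the interaction of tumor and training, also 0%, no member passed at an unadjusted p under 0.05, beside 5.88% and 9.21% of all genes. The interaction for Cish was 0.63 on the log2 scale (SE 1.22), and ran from -0.22 without TE mouse 2 to 1.82 without T mouse 1. For Socs2 it was 0.61 (SE 0.518), and ran from 0.10 without TE mouse 1 to 0.96 without T mouse 1.

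**Figure D3:**
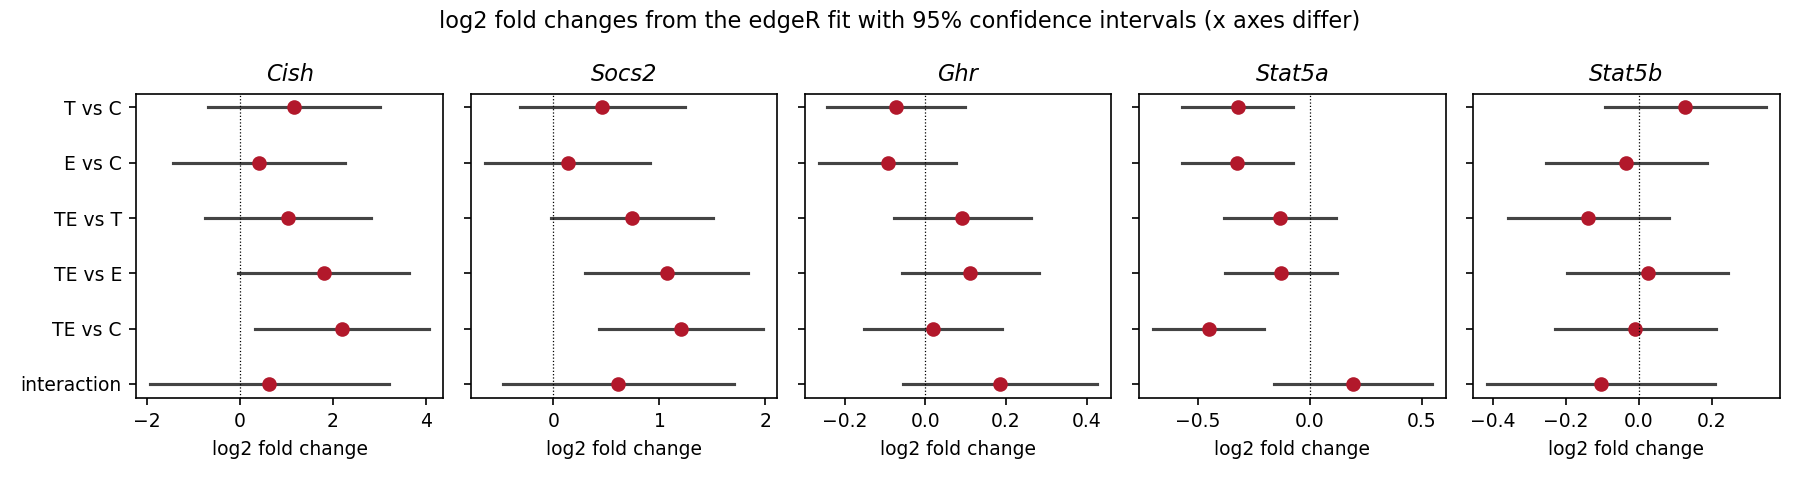
Log2 fold changes (x axis, own scale in each panel) of the 5 genes in the 6 comparisons (y axis), with points for the edgeR estimate and lines for its 95% confidence interval. The intervals of Cish span several log2 units, as from -0.68 to 3.01 for T vs C, whereas those of Ghr stay within 0.43 of 0.

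By CPM, Cish and Socs2 were highest in the same 4 mice, though the fourth place for Cish was a near tie. TE mice 1, 2 and 3 and T mouse 1 were the top 4 of 16 for both genes, and C mouse 2 was among the lowest 3 for both. Over the 16 mice r was 0.58 and rho 0.63 (log2 CPM), 0.48 after group means were subtracted, and between 0.53 and 0.68 with any one mouse left out. The order within the 4 differed, with TE mouse 1 highest for Socs2 and TE mouse 2 for Cish. E mouse 4, which ranked 5 of 16 for Cish, ranked 15 for Socs2. Its Cish level was 24.51 CPM, against 24.61 CPM in TE mouse 1. By FPKM (5.777 against 5.763) and by counts (908 against 906) E mouse 4 lay above TE mouse 1, so the top 4 for Cish depended on the normalization. These are descriptions over mice of 4 groups.

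The 5 genes most like Cish over the 16 mice, by r of log2 CPM, included Pla2g7, Klhl26, Zfp12 and Chac1, with r from 0.77 to 0.83. Chac1, a glutathione-degrading enzyme induced by stress, reached 121.4 CPM in TE mouse 2, its highest, and was at 14.23 CPM in C mouse 2, its lowest. Its r with Cish was 0.77 over all mice and 0.75 after group means were subtracted. Chac1 was the last of the 5 and stayed among them in only 2 of 16 runs with one mouse left out, and Zfp12 did so in 5 of 16. Pla2g7 and Klhl26 had r of 0.83 with Cish but over a narrow range, from 30.16 to 54.65 CPM and from 10.92 to 16.03 CPM.

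**Figure D4:**
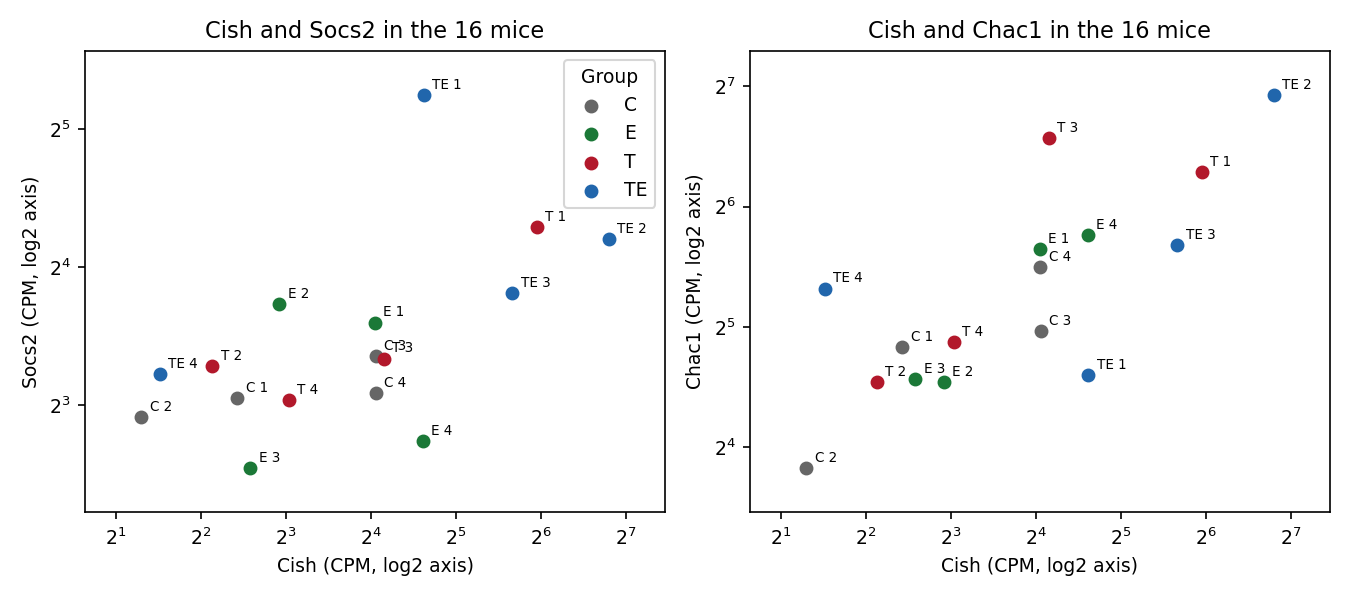
CPM of Socs2 (left) and Chac1 (right) against Cish on log2 axes, with a labelled point for each of the 16 mice colored by group. TE mouse 2 is the highest for Cish and Chac1, and TE mouse 1 for Socs2.

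Those most like Socs2 included Zbtb11, Nup210, Shisa2 and Gm40451, with r from 0.81 to 0.86. Nup210, which encodes a nuclear pore protein, was at 62.38 CPM in TE mouse 1 and at 33.57 to 43.26 CPM in the other mice. Igf1, the growth factor that growth hormone induces, was also highest in TE mouse 1, at 48.10 CPM, and had r = 0.60 with Socs2 but 0.08 with Cish. The 4 genes named with Socs2 were picked by r in these same mice, so a high r was set by the choice. Their rho was lower, at 0.63 to 0.74. After group means were subtracted the r of these 4 genes with Socs2 was 0.77 to 0.79, and with any one mouse left out it was at least 0.64. Other genes then took their places in the order, since 0 of 5 stayed among the 5 most like Socs2 after that subtraction and 1 of 5 without TE mouse 1. For Cish, 2 of 5 stayed after the subtraction, and 3 or 4 with any one mouse left out.

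For T against C, 4 of 65 tested genes in the lists of other pathway genes were called, which is 6.15%, against 0.678% of all tested genes. The lists were chosen with earlier results known, so that share is a description. For T against C, of 14 tested receptors that signal through STAT5, 1 was called higher and 0 lower (median log2 difference 0.19, against 0.00 for all genes). The gene was Csf2rb2, which encodes a receptor beta chain for interleukin 3 and is a close copy of Csf2rb, so that its counts are uncertain. It was at 2.60 ± 1.21 CPM in the C group and 8.56 ± 2.82 CPM in the T group (log2 1.72, SE 0.342, adjusted p = 0.0314 with edgeR). Of 14 kinases and adaptors, 1 was called higher, Jak3, the kinase of the interleukin 2 receptor family, at 5.59 ± 1.02 CPM in the C group and 10 ± 1.19 CPM in the T group (adjusted p = 0.0451 with edgeR). Of 5 other STAT factors, 1 was called higher, Stat3, which answers to interleukin 6, at 64.4 ± 3.35 CPM in the C group and 94.7 ± 14.2 CPM in the T group (log2 0.56, SE 0.0877, adjusted p = 0.0083 with edgeR). Of 14 tested growth hormone and STAT5 target genes, 1 was called lower, Ccnd1, the cyclin D1 gene, at 14.2 ± 4.33 CPM in the C group and 7.10 ± 1.30 CPM in the T group (adjusted p = 0.0451 with edgeR). None of the 6 other SOCS genes and none of the 12 phosphatases, ligases and other inhibitors was called.

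The call of Csf2rb2 was lost without C mouse 1, 2 or 4 or T mouse 3 or 4 (adjusted p up to 0.107 with edgeR). That of Jak3 was lost without C mouse 1, 3 or 4 or T mouse 1, 3 or 4 (up to 0.143), and that of Ccnd1 without C mouse 2, 3 or 4 or T mouse 1, 3 or 4 (up to 0.14). The call of Stat3 was kept without any one of the 8 mice. In a fit of the T and C mice alone none of the 4 genes passed, with adjusted p from 0.0544 to 0.108 with edgeR. Neutrophil marker sums were 10.6 to 53.3 CPM in the T group and 2.14 to 14.7 CPM in the C group, with 5 of the 9 tested neutrophil markers called higher and Camp at a count of 0 in 10 of 16 libraries, and lymphocyte sums were 0.767 to 2.42 CPM and 1.27 to 28.7 CPM. Erythroid sums were 462 to 532 CPM in the T group and 227 to 330 CPM in the C group, and 4 of the 6 tested erythroid markers were called higher. Of 8 endothelial markers 1, Kdr, was called lower, and of 8 fibroblast markers 1, Ly6a, was called higher. None of 10 macrophage markers was called, though 5 were higher at an unadjusted p under 0.05, where 14.2% of all tested genes passed. The part of such cells in these values was not tested, and in whole muscle fewer cells of a type and less RNA per cell cannot be told apart.

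For TE against E, 1 of 65 tested genes of these lists was called, which is 1.54%, beside 0.231% of all tested genes. It was Jak3, which was higher (10.3 ± 2.16 against 5.40 ± 1.38 CPM, log2 0.93, SE 0.184, adjusted p = 0.0452 with edgeR). This call was lost without E mouse 1, 2 or 3 or TE mouse 2, 3 or 4 (adjusted p up to 0.181 with edgeR) and in a fit of these 8 mice alone (0.0695). Neutrophil sums were 14.2 to 26 CPM in the TE group and 2.56 to 6.41 CPM in the E group, and erythroid sums were 547 to 797 CPM and 249 to 377 CPM, with 5 of 6 tested erythroid markers called higher and none of the 9 tested neutrophil markers called. Fibroblast sums were 1950 to 2120 CPM in the TE group and 2670 to 3480 CPM in the E group. None of the 8 tested fibroblast markers was called, and at an unadjusted p under 0.05 6 were lower and 1 higher. The part of these cell types in the value of Jak3 was not tested. For TE against C it was also 1 of 65, beside 0.325% of all tested genes, namely Csf2rb2 (log2 1.80, SE 0.343, adjusted p = 0.0338 with edgeR), a call lost without C mouse 1, 2 or 4 or TE mouse 4 (up to 0.128). In that comparison 2 of 9 tested neutrophil markers, Retnlg and S100a9, and 5 of 6 tested erythroid markers were called higher, and their part in the value of Csf2rb2 was not tested. E against C, TE against T and the interaction had 0 calls in the lists with edgeR.

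Genes close to the members in the chain gave values without a call. Jak2, the kinase at the growth hormone receptor, was at 63.8 ± 6.86 CPM in the C group, 51.9 ± 5.81 in the E group, 56.1 ± 7.64 in the T group and 62.6 ± 10.1 in the TE group. Its log2 difference was -0.30 for E against C (SE 0.12, adjusted p = 0.287 with edgeR), 0.27 for TE against E (0.508) and 0.46 for the interaction (SE 0.17, adjusted p = 0.465 with edgeR), each at an unadjusted p under 0.05. In these comparisons 14.2%, 9.23% and 9.21% of all tested genes passed at that level, and all of them share the E mice. Igf1 was at 19.4 ± 2.39 CPM in the C group, 24.9 ± 9.42 in the E group, 20.5 ± 3.78 in the T group and 27.9 ± 14 in the TE group. Socs3, the inhibitor downstream of Stat3, was at 4.77 ± 0.969 CPM in the C group and 10 ± 0.991 CPM in the T group, and all 4 T mice lay above all 4 C mice (log2 1.07, SE 0.35, adjusted p = 0.172 with edgeR), as in 4.03% of tested genes in that direction. Bcl6, a gene that STAT5 represses in liver, ranged from 50.57 to 150.3 CPM, with r = 0.48 with Socs2 and 0.10 with Cish.

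**Figure D5:**
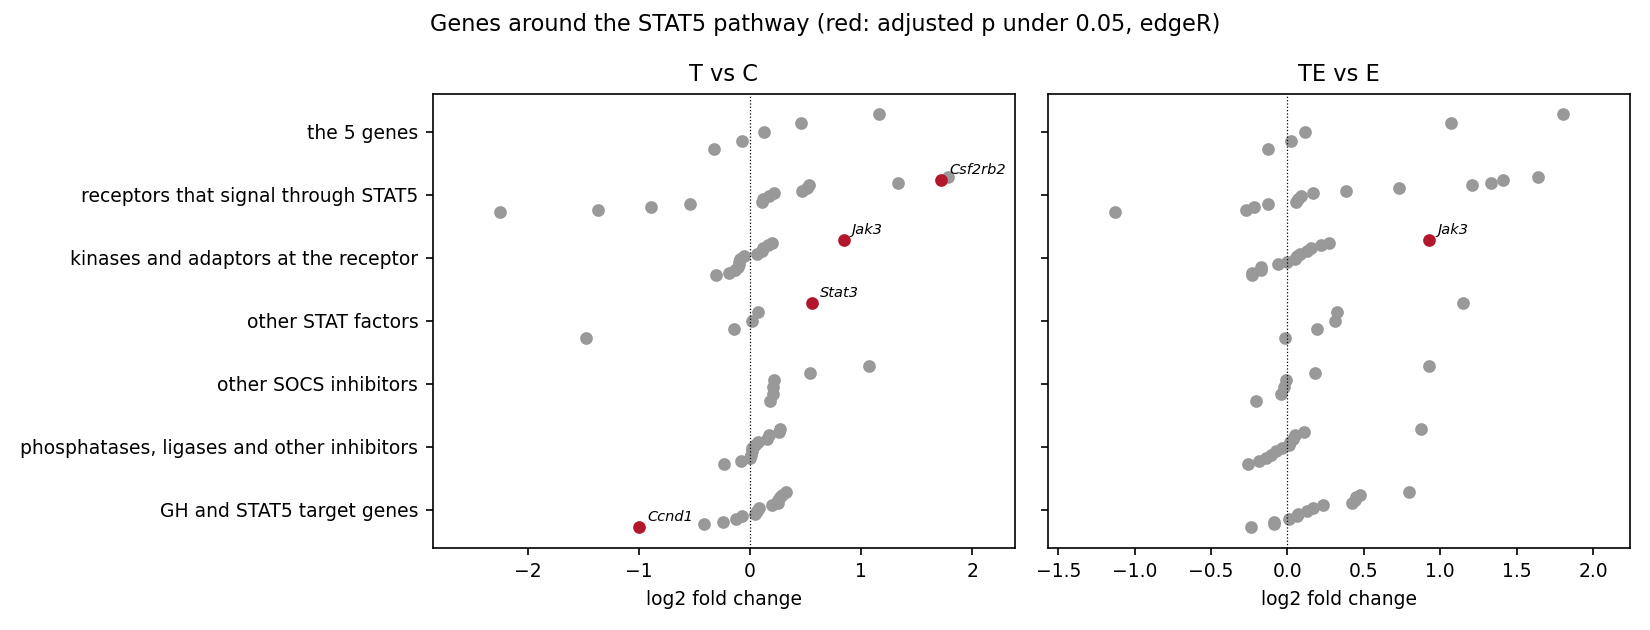
Log2 fold changes (x axis) of the tested genes of each list (y axis) for T vs C (left) and TE vs E (right), with a point per gene and genes called by edgeR in red. Csf2rb2, Jak3, Stat3 and Ccnd1 are called for T vs C and Jak3 for TE vs E, and the 5 genes described are not called.

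The level of Cish was set beside measures of other cell types and of the libraries. Its r with the marker sums ranged from -0.47 for lymphocytes to 0.39 for myofibers, and that with the adipocyte sum was 0.09. With the library total r was 0.13 and with the number of genes with a count -0.45. Socs2 had its highest r, 0.51, with the satellite cell sum. TE mouse 4, whose lymphocyte sum stood apart, was low for Cish, and without it the log2 difference of Cish for TE against C was 2.60 in place of 2.20.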

How the data were processed

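RNA of the gastrocnemius muscle of 16 mice was sequenced, 4 mice in each of 4 groups taken from the labels. Per the submitters' processing notes, reads were trimmed with fastp 0.20.1, aligned to GRCm39 with HISAT2 2.1.0 and counted with HTSeq 0.11.2. The authors deposited the raw counts per gene and FPKM values, which are these counts per gene length and library total. The annotation release and strand setting are not given in the sources used here. The tables held 0 columns of other samples.

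Counts were tested with edgeR 4.0.16 in R 4.3.3 (filterByExpr, TMM, glmQLFit and glmQLFTest, 1 coefficient per group, all 16 libraries in 1 fit). P-values are two-sided and adjusted by the Benjamini-Hochberg method over the 14749 tested genes, with a threshold of 0.05. Log2 CPM used TMM factors and a prior count of 2. The comparisons were T vs C, E vs C, TE vs T, TE vs E and the interaction (TE minus T, less E minus C), and TE vs C was added after the values were seen. Comparisons share groups. The members and lists were chosen with earlier results of these data known. Named were the 5 members, list genes called in a comparison, Jak2, Igf1, Socs3, Stat3 and Bcl6, and the 5 genes with the highest r with Cish and with Socs2, of which 1 each is not reported here. The test was checked on simulated counts.

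Alternatives were DESeq2 1.42.0, its size factors, no filter, a replicate block, a fit of only the 2 groups in question, a fold change above 2 or below 0.5, and each library left out in turn. Canonical transcript lengths for the levels were chosen after seeing the data. Promoter sequences are RefSeq's of GRCm38.p6, matched to 4 of the 5 genes, and gene positions are GENCODE's for GRCm39. Counts hold PCR copies, so counting floors cover counting error only.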

Additional observations from a re-analysis of the deposited data

How the results depend on the processing

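Of 425 values of the 5 genes under alternatives, 411 kept their direction and their side of the threshold, and 13 changed direction, each with one mouse left out. For Cish the log2 difference was -0.0213 for T vs C without T mouse 1 (up to 1.51 without T mouse 2), -0.0447 for E vs C without E mouse 4 (up to 0.737), and -0.22 for the interaction without TE mouse 2 (up to 1.82). For Socs2 in E vs C it was -0.00916 without E mouse 1 and -0.0748 without E mouse 2 (up to 0.302). For Stat5b it was 0.00988 without C mouse 1 and 0.0777 without E mouse 2 in E vs C (down to -0.0917), -0.0851 without E mouse 2 and -0.0305 without TE mouse 2 in TE vs E (up to 0.0947), and 0.0378 without C mouse 1 and 0.0599 without TE mouse 1 in TE vs C (down to -0.0659). For Ghr in TE vs C it was -0.00811 without C mouse 2 and -0.0229 without TE mouse 2 (up to 0.0555). Stat5a in TE vs C passed the threshold with DESeq2 (-0.45, adjusted p = 0.0349), which made 1 of 5 members called there. DESeq2 also called more of all genes there than edgeR did, as the next paragraph gives. The cause was not tested.

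The number of genes called depended on the tool and the mice. T vs C gave 100 genes, 42 with the fold threshold, 422 with DESeq2, 174 without the filter and 30 with only these groups, and 16 to 255 without one mouse. E vs C gave 13, 7, 280, 45 and 183 in that order, 21 with DESeq2's size factors, and 0 to 35 without one mouse. TE vs T gave 0, with 7 by DESeq2, 3 without the filter and 0 to 1 without one mouse. TE vs E gave 34, 11, 179, 69 and 96, and 18 to 33 without one mouse. TE vs C gave 48, 19, 243, 117 and 157, and 14 to 46 without one mouse. The interaction gave 0, 20 by DESeq2 and 0 to 1 without one mouse.

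The replicate numbers stand for different mice. Of 24 same-number pairs, 5 had a correlation of deviations over 0.1 (from -0.241 to 0.214), and 5 of 16 samples correlated best with their own number. With the replicate block E vs C gave 25 genes in place of 13, Ccnd1 lost its call in T vs C (adjusted p = 0.055 with edgeR), and no call of a member changed.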
